A study of Arabidopsis thaliana with 6 samples.

Results

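The 6 genes described here belong to the indolic phytoalexin routes of Arabidopsis thaliana, which make the defence compounds camalexin and the indole cyanides (indole-3-carbonyl nitriles) from tryptophan, or were grouped with them. They were chosen by probe set, the group of short probes that reads 1 transcript on an Affymetrix ATH1 array, and stand for 6 of 22810 probe sets in the table: 258277_at (PAD3), 267567_at (CYP71A13), 261021_at (AT1G26380), 261020_at (AT1G26390), 261005_at (AT1G26420) and 266000_at, the 1 probe set that the probe table gives for CYP71B6. The probe table names 4 of the 6, whereas the names PAD3 and CYP71A13 were taken from the selection rule, because the table lists neither probe set. CYP71A12 is a close relative of CYP71A13, and whether 267567_at also reads it could not be checked.

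The study measured rosette transcripts in the wild type Col-0 and in a double mutant of the APS kinase genes APK1 and APK2, which the labels describe as salk_053427 crossed with salk_093072. There were 3 arrays per genotype, each from a pool of 10 whole rosettes cut at 35 days, before bolting, 4 h into a 10 h day. No other allele or treatment is labelled, and the mutant is 1 combination of 1 insertion line for each gene. APS kinases make PAPS, the sulfate donor that glucosinolate synthesis needs, and the comparison asks how transcripts differ when the kinases encoded by APK1 and APK2 are lost.

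Camalexin and the indole cyanides share their first steps with the indole glucosinolates. The cytochromes CYP79B2 and CYP79B3 turn tryptophan into indole-3-acetaldoxime, from which CYP83B1 leads to indole glucosinolates and CYP71A13 to indole-3-acetonitrile. After conjugation to glutathione and trimming, PAD3 (CYP71B15) closes the ring of camalexin, while AT1G26380, a flavin-dependent oxidase also known as FOX1, oxidises the cyanohydrin made by CYP71A12 to indole-3-carbonyl nitrile. In healthy leaves both routes are known to be nearly silent and to be switched on by pathogens and by stress.

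All arrays had been scaled by the authors, and their median signals lay between 32.5 and 34.5. Pairs of arrays of 1 genotype correlated at 0.974 to 0.986 on the log2 scale and pairs of different genotypes at 0.950 to 0.969. A signal under its array's 40th percentile, which lay between 16.9 and 19.4, was treated as too dim to give a level. APK1 and APK2 have no named probe set, so the labels were not checked against them. Of the leaf markers, RCA (Rubisco activase) had 6216 ± 916 in the wild type against 6277 ± 729 in the mutant (SD, n = 3) and was not called (limma adjusted p = 0.950), while SBPASE, a Calvin cycle enzyme, fell 1.26-fold, from 3023 ± 167 to 2412 ± 214 (adjusted p = 0.0245, and 0.0804 with no filter on signal), and was lower on all 3 mutant arrays than on any wild-type array. The 3 root markers with a probe set summed to between 252 and 328 in the wild type but to between 405 and 478 for the mutant. EXPA7 and EXPA18, of root hairs, lay under the limit on all 6 arrays, and almost all of the sum was PYK10, a beta-glucosidase of roots and seedlings, which rose 1.62-fold (95% interval 1.37 to 1.92, limma adjusted p = 0.00107). The part of either marker in the results below was not tested. The flower markers had no named probe set, and in whole rosettes a change in the number of cells that express a gene cannot be told apart from a change per cell.

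All 6 genes had higher signal in the double mutant, by amounts that ranged from at least 3.17-fold for CYP71A13 and 5.84-fold for PAD3 to 1.23-fold for CYP71B6. For 4 of them, CYP71A13 and the 3 oxidase genes, every wild-type array was under the limit and every mutant array above it. In the limma fit over 13848 tested probe sets all 6 passed an adjusted p of 0.05 as higher in the mutant, against 5.79% of all tested probe sets. The 4 genes that were dim in the wild type had passed the filter through their mutant arrays, so their calls rest on a class in which 50 of 74 probe sets, or 67.6%, were called higher. Without any filter on signal, over 22746 probe sets, all 6 were also called, against 3.17%. For those 4 genes this fit still sets wild-type signals under the limit against mutant signals above it. The 6 genes were chosen with earlier results of these data known, so neither count of 6 is a separate result. Without mutant replicate 3 the calls came down to 3 of 6, those of PAD3, CYP71A13 and AT1G26380.

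**Figure D1:**
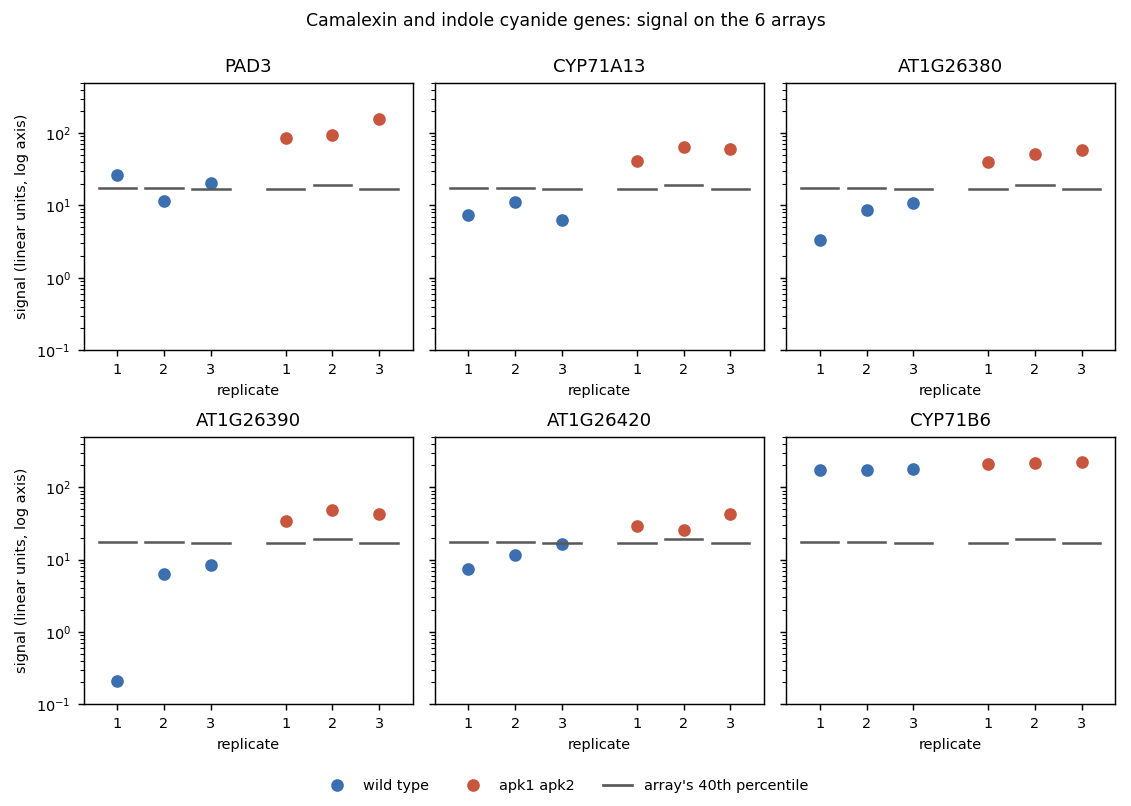
Signal (linear units on a log axis) of the 6 genes on each wild-type and each apk1 apk2 array, by replicate number, with short bars at each array's 40th percentile. In all 6 panels the lowest mutant point lies above the highest wild-type point (for CYP71B6, 210 against 180), and for CYP71A13 and the 3 oxidase genes all wild-type points lie under the bars.

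CYP71A13, which dehydrates indole-3-acetaldoxime to indole-3-acetonitrile, was the first pathway step with a probe set in the comparison. Its signal was 7.32, 11.0 and 6.39 in wild-type replicates 1, 2 and 3 but 41.8, 64.7 and 60.4 in the mutant replicates. The genotypes did not overlap: the wild-type arrays were at 0.379 to 0.628 of their limit and the mutant arrays at 2.46 to 3.52 times theirs. Every wild-type signal was under the limit, so the rise is given as a lower bound. It was at least 3.17-fold (adjusted p = 3.76e-05 with limma, n = 3 per genotype). On the mutant arrays the probe set lay between the 54.7th and the 63.2nd percentile of all probe sets.

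PAD3, the cytochrome of the last step to camalexin, was above the limit on all mutant arrays and on part of the wild-type arrays. Its signal was 26.7, 11.5 and 20.6 in the wild type, where replicate 2 fell under the limit, and it was 84.4, 94.2 and 159 on the mutant arrays. The means were 19.6 ± 7.66 and 112 ± 40.3 (SD, n = 3), and the lowest mutant array was 3.16 times the highest wild-type array. The fitted rise was 5.84-fold (95% interval 3.76 to 9.07, adjusted p = 8.05e-05 with limma). With an offset of 16 added to each signal before the logarithm, which weighs down dim values, the rise was 3.55-fold and still called.

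On the indole cyanide branch, AT1G26380 (FOX1) went from under the limit on all wild-type arrays to above it on all mutant arrays. The wild-type signals were 3.33, 8.54 and 10.8 and the mutant signals 39.6, 52.0 and 58.2. The genotypes did not overlap, and the mutant arrays were at 2.32 to 3.39 times their limits. The rise was at least 2.86-fold (adjusted p = 4.07e-04 with limma). This gene sits first in a run of 5 consecutive protein-coding genes, AT1G26380 to AT1G26420, in the gene table of the assembly TAIR10.1. All belong to the berberine bridge enzyme-like family, flavin-linked oxidases named for an alkaloid enzyme of poppies.

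The next gene in that run, AT1G26390, had a wild-type array with a signal near 0. Its signals were 0.211, 6.31 and 8.39 in wild-type replicates 1, 2 and 3, and 34.1, 48.7 and 43.3 in the mutant. Replicate 1 of the wild type stood far below the other two on the log2 scale, although all 3 arrays were under the limit, and the mutant arrays lay at 2.00 to 2.52 times their limits. The rise was at least 2.41-fold, a bound that does not depend on how far below the limit the wild type lay. The limma test does depend on it: the fitted log2 change was 4.22 (95% interval 1.96 to 6.48, adjusted p = 0.0192), and it was 2.51 when wild-type replicate 1 was left out (adjusted p = 3.13e-04). The call ended without mutant replicate 2 (adjusted p = 0.0691) or 3 (adjusted p = 0.0775), without the variance trend (adjusted p = 0.107) and with a robust variance prior (adjusted p = 0.0918).

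AT1G26420, the last of the run, rose less. Its signals were 7.48, 11.5 and 16.3 in the wild type, the last close to its limit of 16.9, and 29.4, 25.5 and 42.2 in the mutant. The groups did not overlap, but the mutant arrays were at only 1.31 to 2.46 times their limits. The rise was at least 1.84-fold (adjusted p = 0.0107 with limma), and the call ended without mutant replicate 3 (adjusted p = 0.0813).

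The 2 genes between them did not share this signal. AT1G26400 gave 2.24, 0.421 and 3.65 in the wild type and 2.19, 2.78 and 3.74 in the mutant. AT1G26410 gave 1.30, 2.66 and 0.847 in the wild type and 10.8, 3.18 and 2.07 in the mutant. Both were under the limit on all 6 arrays, with overlapping genotypes, and were not tested, so no level is given for either.

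**Figure D2:**
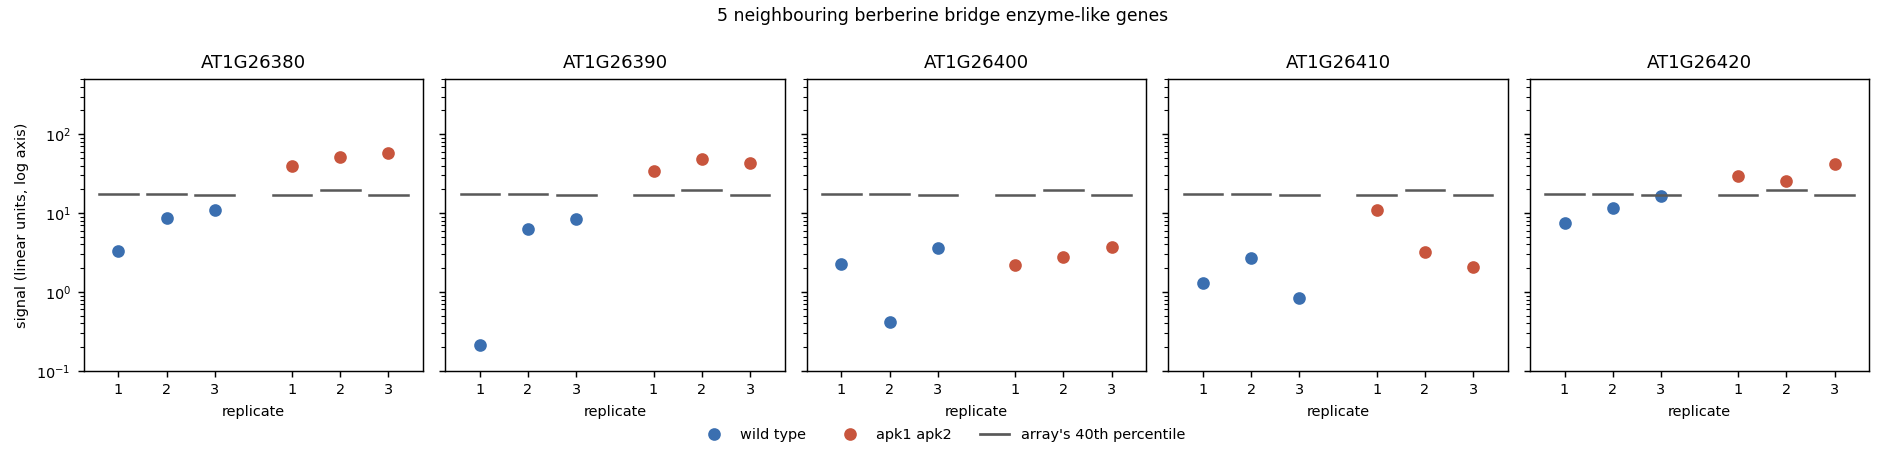
Signal (linear units on a log axis) of the 5 neighbouring genes AT1G26380 to AT1G26420, in their order on chromosome 1, by genotype and replicate, with short bars at each array's 40th percentile. AT1G26380, AT1G26390 and AT1G26420 rise above the bars in all 3 mutant arrays, whereas AT1G26400 and AT1G26410 stay under them on all 6 arrays.

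CYP71B6, a cytochrome that turns indole-3-acetonitrile into indole-3-carbaldehyde and indole-3-carboxylic acid, was well above the limit in both genotypes. Its signal was 175, 172 and 180 in the wild type and 210, 219 and 221 in the mutant, at 9.78 to 12.9 times the limit. The replicates were tight, at 176 ± 4.15 and 216 ± 5.88 (SD, n = 3), and the genotypes did not overlap. The rise was 1.23-fold (95% interval 1.08 to 1.41) with an adjusted p of 0.0449 in limma, close to the threshold. It ended when any 1 of the 6 arrays was left out (adjusted p = 0.0617 to 0.142), without the variance trend (adjusted p = 0.101), with arrays centred on their medians (adjusted p = 0.0809) and with the limit at the 30th percentile (adjusted p = 0.0538).

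**Figure D3:**
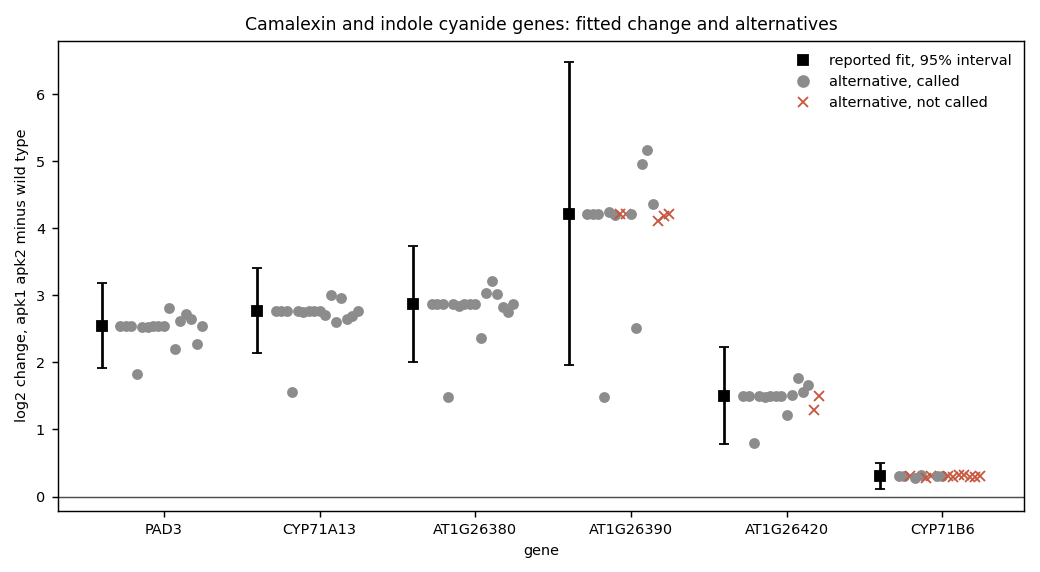
Fitted log2 change (apk1 apk2 minus wild type) of each gene with its 95% interval (black squares) and under each alternative setting (grey points where called, red crosses where not called). PAD3, CYP71A13 and AT1G26380 were called in all 16 alternatives, AT1G26390 in 11 of 16, AT1G26420 in 13 of 15 and CYP71B6 in 6 of 16.

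The mutant arrays were not alike in the level of these genes. Mutant replicate 1 was the lowest mutant array for 5 of the 6 genes, all but AT1G26420, and replicate 3 was the highest for 4. The same arrays held these places among the 802 probe sets called higher, where replicate 1 was lowest in 56.9% and replicate 3 highest in 59.9%. In the wild type replicate 3 was highest for 4 of the 6 genes, CYP71B6 and the 3 oxidase genes. Replicate 1 was lowest for 3, the oxidase genes. All wild-type signals of the oxidase genes were under the limit, so their order gives no ranking of levels. The share over other probe sets was not taken for the wild-type arrays. The genotypes did not overlap in any of the 6 genes, and 13% of all tested probe sets likewise had every mutant array above every wild-type array. For the 4 genes that were dim in the wild type this is no separate result. They entered the test only through mutant arrays above the limit, which nearly fixes the lack of overlap.

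Few other genes of the routes could be read. Of the other 15 genes on the list for entry and biosynthesis, CYP79B2, CYP79B3, CYP71A12, CYP82C2 and GSTF6 among them, 0 had a named probe set, so they were not analysed here. Of 20 regulators, among them the factor WRKY33 and the kinases MPK3 and MPK6, 1 was named and tested, BIK1, a receptor-like cytoplasmic kinase of pattern-triggered immunity. BIK1 had 56.0, 58.8 and 68.4 in the wild type and 73.2, 103 and 91.2 in the mutant, a rise of 1.45-fold (95% interval 1.16 to 1.82, limma adjusted p = 0.0347). The genotypes did not overlap, but 6 of 15 alternatives ended the call, with adjusted p-values up to 0.119, among them leaving out wild-type replicate 1 or 2, or mutant replicate 2 or 3. The 3 transporters on the list had no named probe set.

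Beside CYP71B6, 2 of 7 genes on the list for side routes of indole-3-acetonitrile and auxin-like acids had a probe set. GH3.5 (WES1) conjugates auxin to amino acids. Its mean signal was 96.5 ± 7.11 (SD, n = 3) in wild-type rosettes against 77.0 ± 9.68 in mutant rosettes. It was not called by limma (adjusted p = 0.137, unadjusted p = 0.0248), nor in any of 15 alternatives. Every mutant array was below every wild-type array, the lowest wild-type signal being 88.3 and the highest mutant signal 85.2. On the competing branch to indole glucosinolates, 1 of 13 genes was tested, the glucosyltransferase UGT74B1. It rose 2.45-fold and was called in 15 of 15 alternatives.

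No other gene of the berberine bridge enzyme-like family was called in the fit. Of the 24 genes beside AT1G26380, AT1G26390 and AT1G26420, 19 had a probe set, 12 of these were under the limit on all 6 arrays and 6 were tested. AT1G30700 was above the limit on mutant replicate 3 alone and was not tested, and its values are given at the end. Of the 6 tested genes, 0 were called in limma, where 11.3% of all tested probe sets were called in either direction. With so few tested, this count is no result about the family. In limma 3 of the 6 had an unadjusted p under 0.05, AT4G20860, AT5G44400 and AT5G44410. AT4G20860 went from 46.1 ± 0.772 to 63.8 ± 9.00 (SD, n = 3, limma adjusted p = 0.0673), AT5G44400 had 186 ± 12.7 and 217 ± 1.68 (adjusted p = 0.147), and AT5G44410 had 68.9 ± 12.9 and 48.0 ± 12.1 (adjusted p = 0.0982). The median log2 change of the 6 was 0.17, beside −0.02 over all tested probe sets. In limma, AT5G44410 passed as lower once replicate number entered as a block (adjusted p = 0.0270) or mutant replicate 1 was left out (adjusted p = 0.0206), and AT4G20860 as higher without mutant replicate 2 (adjusted p = 0.0419). The remaining 3 were AT2G34810 (71.7 ± 15.2 and 78.6 ± 22.4), AT4G20830 (197 ± 41.2 and 196 ± 89.9) and AT5G44390 (22.9 ± 3.53 and 31.7 ± 5.92).

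PAD3, CYP71A13 and CYP71B6 have 47 relatives in the CYP71A and CYP71B subfamilies of cytochromes P450 in the gene table. Of these, 17 had a probe set, all of them CYP71B genes, so the CYP71A subfamily beside CYP71A13 was not analysed here. In limma 10 were tested, of which 1 was called higher, 1 lower and 8 not at all, where 5.79% of all tested probe sets were called higher and 11.3% in either direction, so these counts of 1 are no result about the subfamily. The median log2 change of the 10 was 0.12. CYP71B23 went from 212 ± 18.6 to 295 ± 28.2 (SD, n = 3), a rise of 1.39-fold with a 95% interval of 1.19 to 1.62 (limma adjusted p = 0.00861). This was a call that ended without the variance trend (adjusted p = 0.0611). CYP71B34 fell 1.68-fold (95% interval 1.42 to 1.97), from 123 ± 5.33 to 73.1 ± 1.51 (adjusted p = 5.68e-04). The brightest that were not called were CYP71B26, with 456 ± 11.2 and 467 ± 13.2, and CYP71B28, with 130 ± 5.56 and 143 ± 7.10. No specific substrate is given here for these relatives.

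**Figure D4:**
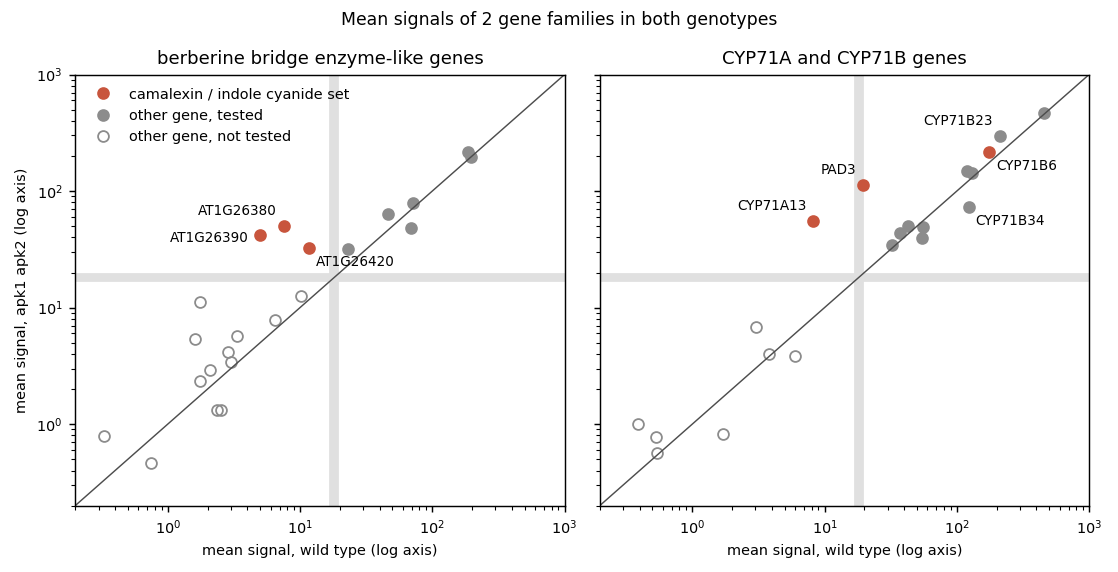
Mean signal in the wild type against mean signal in apk1 apk2 (log axes, n = 3 each) for the berberine bridge enzyme-like family and for CYP71A and CYP71B genes; filled points were tested, open points were not, grey bands span the arrays' 40th percentiles and the line marks equal signal. PAD3, CYP71A13 and the 3 oxidase genes lie above the line at low wild-type signal, while CYP71B6 lies close to it.

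Among the 7466 tested probe sets that name 1 gene, those whose log2 signal followed each gene most closely over the 6 arrays were found by Pearson correlation, given as a description of arrays that share the genotype difference. The pattern of PAD3 was followed by AT5G11930 (r = 0.994), the cathepsin B-like protease gene AT4G01610 (r = 0.992) and SAL2 (r = 0.991). AT4G01610 had 321, 276 and 307 in the wild type and 490, 523 and 605 in the mutant, so that replicate 2 was lowest in the wild type and replicate 3 highest in the mutant, as for PAD3. CYP71A13 was followed by AT1G70810, YLS5 and AT1G13340 (r = 0.996 each), of which YLS5 went from 217 ± 27.4 to 629 ± 59.0 (SD, n = 3). CYP71B6 was followed by AT4G13180 (r = 0.999), AT4G03450 (r = 0.997) and AT3G18250 (r = 0.996).

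The oxidase genes, whose wild-type signals were all dim, as for CYP71A13, and lowest in replicate 1, had other closest matches. Correlations with CYP71A13 and with the oxidase genes rest in part on signals too dim to give a level. AT1G26380 was followed by AT3G56370 (r = 0.998), AT2G19970 and AT3G11880 (r = 0.996 each), and AT1G26390 by AT4G36050 (r = 0.998), AT5G15870 (r = 0.994) and UGT72E2 (r = 0.991), a glucosyltransferase of lignin precursors. AT1G26420 was followed by AT2G20142 (r = 0.994), AT1G06100 (r = 0.993) and AT1G30890 (r = 0.989). Of these 9 genes 2 were called, AT2G19970 and AT2G20142, and 7 were not, where 11.3% of all tested probe sets were called in either direction. All 9 matches of PAD3, CYP71A13 and CYP71B6 were called. The matches were picked for their likeness to genes that differ by genotype, so these counts are no separate result. AT4G36050 had 29.8 ± 2.54 and 33.5 ± 0.0884 (SD, n = 3, limma adjusted p = 0.638), whereas AT2G19970 went from 3.43, 9.30 and 14.4, all under the limit, to 69.0, 68.5 and 87.5.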

How the data were processed

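Deposited intensities on a linear scale were used, a single value for each probe set on each array. MAS5 and GCOS are named, without versions, per the submitters' processing notes. After trimming 2% of probe sets at either end, every array had a mean of 100.01, so equal total signal is assumed. MAS5 detection calls were not used here. Of 22810 probe sets, 64 controls were left out, and 13848 entered the test because at least 3 of the 6 arrays were at or above their own 40th percentile. Values were log2-transformed without offset. The linear model (limma 3.58.1 under R 4.3.3) had genotype as its factor and a variance prior with a trend on signal. P-values are two-sided and adjusted by Benjamini-Hochberg across all tested probe sets, and "called" means an adjusted p under 0.05. Intervals are unadjusted. An exact permutation test of 3 against 3 cannot go below 0.1 and was not used. For a genotype with all 3 arrays under the limit, an "at least" fold sets the bright genotype's mean log2 signal against the dim one's, with dim signals raised to the limit. The adjusted p beside it comes from the fit on the signals as deposited and is no test of the bound.

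Genes were named through the platform's probe table (13513 probe sets with 1 gene, 503 with several, 8730 with none) and a gene table of TAIR10.1. The 6 genes and the lists were chosen with earlier results of these data known. The text names the 6 genes, the tested list genes (of more than 6, those called and the 2 brightest not called) and the 3 most alike probe sets for each of the 6. Sequences were not used here. Shared replicate numbers were checked as pairs. Alternatives changed the filter, offset, normalization, variance prior, threshold, replicate block and arrays used. The fit was tested on simulated data. The number of arrays limits the precision.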

Additional observations from a re-analysis of the deposited data

How the results depend on the processing

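The rise of PAD3, CYP71A13 and AT1G26380 kept its direction and its call in all 16 alternatives, with log2 changes of 1.83 to 2.81, 1.55 to 3.00 and 1.49 to 3.21 and adjusted p-values of up to 0.00772, 0.00160 and 0.00924. For CYP71A13 and the oxidase genes, fitted log2 changes here rest on wild-type signals under the limit and are no measured sizes. For PAD3, wild-type replicate 2 was under it. No log2 change of the 6 genes reversed. The 6 calls became 3 at an adjusted p under 0.01, where the log2 changes of AT1G26390 (4.22), AT1G26420 (1.50) and CYP71B6 (0.30) no longer passed, and 3 to 5 when 1 array was left out, with 3 without mutant replicate 3. In those settings AT1G26390 ranged from 2.51 to 5.17, AT1G26420 from 1.21 to 1.77 and CYP71B6 from 0.28 to 0.32. AT1G26390 (4.22) was not called without the variance trend or with a robust prior. CYP71B6 was not called with the limit at the 30th percentile (0.30), with arrays centred on their medians (0.28) or without the variance trend (0.30). Over all probe sets the 1571 calls (802 higher, 769 lower) became 880 (507 and 373) without the trend, 811 (466 and 345) at an adjusted p under 0.01, and 1029 to 1585 when 1 array was left out, with 1030 when wild-type replicate 3 and 1029 when mutant replicate 3 was missing. A stricter threshold lowers counts by construction, and the cause of the other changes was not tested.

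Replicate numbers are shared by the genotypes, but same-numbered arrays deviated together only weakly (r = 0.082, 0.077 and 0.11), although each array correlated best with its own number, a hint from the data and not from the design. With the replicate number as a block 1789 probe sets were called, and all 6 genes among them, CYP71B6 at an adjusted p of 0.0457.

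With the limit at the 50th percentile AT1G26420 had 5 arrays under it and was not tested, and PAD3 had 3. With the limit at the 30th percentile PAD3 had 0 and AT1G26420 had 1. All alternatives were planned.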

Other observations

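AT1G30700, another berberine bridge enzyme-like gene, gave 0.686, 1.34 and 3.20 in wild-type replicates 1, 2 and 3 and 8.45, 7.33 and 17.8 in the mutant replicates, a choice made after its values were seen. The genotypes did not overlap, but 5 of the 6 arrays lay under the 40th percentile, so no level or fold is given, and without a filter on signal it was not called by limma (adjusted p = 0.0616). UGT74F1, a glucosyltransferase of salicylate and related acids, was under that limit on all 6 arrays.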
